A study of Arabidopsis thaliana with 16 samples.

Results

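The genes described here kept their signal at 1 mM hydrogen peroxide (H2O2) and lay at least 2.38-fold lower at 50 and 100 mM. They are 33 probe sets of the 22746 on the array, a probe set being the group of short probes that reads 1 transcript. The reference was the mean log2 signal of 5 of the 6 arrays at 0 mM. A member had a reference of 5 or more, a 1 mM mean within 0.5 of it, and a mean over the 4 arrays at 50 and 100 mM at least 2.38-fold below the 1 mM mean. The members were thus chosen by their values at 0, 1, 50 and 100 mM. The values met these limits for 37 probe sets, and 4 of them were plastid-encoded genes and were left out. The annotation gave 14 of the 33 members a gene and 19 none. Whether an unnamed member is plastid-encoded is therefore not known here, and 3 unnamed members carry a probe set type (_s_at) whose probes are shared by several transcripts.

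All samples were whole wild-type Arabidopsis seedlings of ecotype Col, 12 days old, grown in liquid medium and kept in the dark for 1 h before treatment. H2O2 at 0, 1, 5, 25, 50 or 100 mM was present for 30 min before, and then during, 1 h with 1 µM of the brassinosteroid epi-brassinolide (BL) or its ethanol solvent. There were 3 solvent and 3 BL arrays at 0 mM, and 1 solvent and 1 BL array at each higher dose, 16 in all. The labels number the arrays at 0 mM without saying whether they came from separate cultures, so a p-value here reflects how far these particular arrays scatter.

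H2O2 is both a by-product of metabolism and a signal in plants, and at high amounts it oxidises proteins, lipids and nucleic acids. The level of a transcript is set by its synthesis and its decay, and transcripts of signalling proteins and regulators are often short-lived. An array signal of a whole seedling reads the transcript's share of all labelled RNA, so fewer cells of a type and less RNA per cell cannot be told apart.

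At 0 mM, solvent replicate 3 stood apart from the other arrays. It correlated with the 5 reference arrays at 0.816 to 0.907 over the 13140 probe sets kept, while those 5 correlated with each other at 0.958 to 0.990. The solvent and BL arrays of 1 dose above 0 mM correlated at 0.987 to 0.995. Solvent replicate 3 was not part of the reference. With it in the reference the rule found 42 members, of which 24 were among the 33. The root glucosidase gene PYK10 and the guard cell factor gene FMA were both present. PYK10 had a mean of 13.29 at 0 mM, 13.11 at 1 mM and 13.96 at 50 and 100 mM, and FMA of 7.17, 5.74 and 4.62. The root hair expansin genes EXPA7 and EXPA18 were low at 0 mM (4.08 and 4.02) and near the lowest value of the table at 1 mM (2.28 and 2.17) and at 50 and 100 mM (2.28 and 2.15). The part of these markers in the members' fall was not tested, and the annotation gave none of the listed shoot or flower markers a probe set. The 3' and 5' ends of control transcripts were compared in 6 pairs of probe sets for actin, GAPDH and ubiquitin. The 3' end exceeded the 5' end by a mean of 1.53 log2 units at 0 mM, 1.53 at 1 mM and 1.55 at 5 mM. The mean was 1.75 at 25 mM, 1.74 at 50 mM and 1.95 at 100 mM. The pairs differed widely, from -0.421 (a ubiquitin pair) to 5.225 (an actin pair) in solvent replicate 1 at 0 mM. The mean difference, a measure of RNA integrity and labelling, was level from 0 to 5 mM and higher from 25 mM upward. Its part in the members' fall was not tested.

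Most members were not lowered at high doses only. They had already lost part of their signal at 5 mM, a dose the choice of members did not use. For 7 members under 25% of the fall from 1 mM to the mean of 50 and 100 mM was present there. Both 5 mM arrays lay below all 5 reference arrays and both 1 mM arrays for 23 of the 33 members, against 11.6% of all probe sets kept. With solvent replicate 3 added to those 7 arrays the count was 14, against 7.72% of all probe sets. At 25 mM, also not used in the choice, both arrays lay below the same 7 arrays for 30 members (10% of all probe sets). At 50 and 100 mM, the doses that chose them, the count was 31 at each (10.8% and 11.7% of all). Since the 7 arrays helped to choose the members, these counts are descriptions. The 33 are accordingly called genes lowered between 1 and 50 mM.

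Across the members the median signal was 8.11 in the reference, 8.23 at 1 mM, 7.15 at 5 mM, 6.48 at 25 mM, 6.22 at 50 mM and 6.18 at 100 mM. The fall from 1 mM to the mean of 50 and 100 mM ranged from 1.26 to 3.00 log2 units among members, with a median of 1.47, or 2.76-fold. For 4 members an array at 50 or 100 mM lay within 1 log2 unit of the lowest value in the table, 2.12, which limits how large their fall could read. Of that fall, a median of 56.3% was present at 5 mM and 86.7% at 25 mM. For comparison, 7853 probe sets not annotated as plastid-encoded met the limits on the reference and on 1 mM, and 43 of them rose by at least that fold. The member nearest inside the limit fell by 1.255 log2 units (263776_s_at, unnamed), followed by 258183_at (1.256) and 260423_at (1.258). The nearest outside were 260667_at, which fell by 1.229, and AT2G16630 and AT3G55640, which both fell by 1.206.

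**Figure D1:**
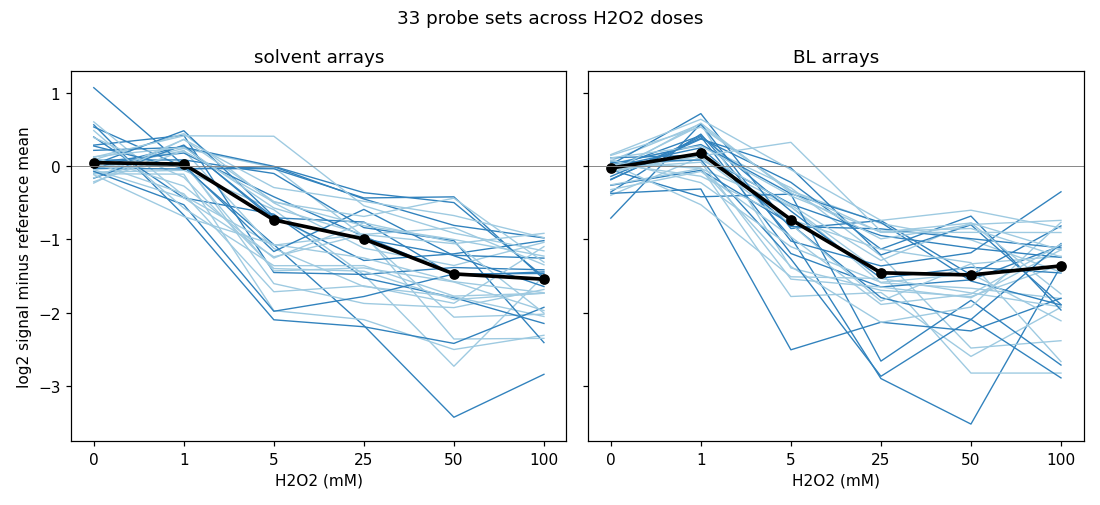
Log2 signal of each of the 33 members minus its reference mean, against H2O2 dose (mM, evenly spaced), for solvent arrays (left) and BL arrays (right). Dark blue lines are the 14 members with a gene, light blue lines the 19 without, and the black line is the median; the 0 mM points are means of solvent replicates 1 and 2 or of the 3 BL arrays. The medians stay near 0 at 1 mM, drop at 5 mM and change little from 50 to 100 mM.

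Among genes of signalling and immunity, AT5G44910 had the largest fall of all members. It encodes a protein with a Toll/interleukin-1 receptor (TIR) domain, a domain found in many plant immune receptors. Its solvent arrays at 0 mM read 10.23, 7.17 and 10.75 (replicates 1 to 3), and its BL arrays there 8.13, 7.83 and 7.49. With solvent and BL respectively it read 8.16 and 8.61 at 1 mM, 7.10 and 7.20 at 5 mM, and 5.996 and 5.27 at 25 mM. It read 4.75 and 4.65 at 50 mM and 5.33 and 6.81 at 100 mM. All arrays from 25 mM upward lay below every array at 0 and 1 mM, with the lowest values at 50 mM and a higher BL array at 100 mM. The fall of 3.00 from 1 mM to the mean of 50 and 100 mM is 7.98-fold.

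AT5G52810 encodes a reductase in the synthesis of pipecolic acid, a signal of systemic immunity. It read 7.16, 6.51 and 8.37 in the solvent arrays at 0 mM and 6.66, 6.71 and 6.90 in the BL arrays. It went from 6.96 and 7.20 at 1 mM through 6.37 and 6.17 at 5 mM and 5.83 and 5.26 at 25 mM to 5.32 and 5.41 at 50 mM, and it read 5.24 and 5.33 at 100 mM. From 5 mM upward no array overlapped those at 0 and 1 mM.

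AT1G51850, the gene of a leucine-rich repeat receptor kinase, followed the dose least clearly. Its solvent arrays at 0 mM read 9.36, 5.46 and 11.49 and its BL arrays 5.94, 5.79 and 5.16, so its reference of 6.34 had an SD of 1.71 (n = 5). It read 6.35 and 6.91 at 1 mM, 5.17 and 5.32 at 5 mM, 5.75 and 4.98 at 25 mM, 5.12 and 5.16 at 50 mM, and 4.70 and 5.99 at 100 mM. Its values at 50 and 100 mM overlapped the BL arrays and solvent replicate 2 at 0 mM, and its 1 mM arrays lay above those. Of the 4 arrays at 50 and 100 mM, the 100 mM BL array also lay above all 3 BL arrays at 0 mM.

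Among regulators of transcription, AT2G38300 encodes a MYB-related protein and was the dimmest named member. It read 5.25, 5.55 and 3.76 in solvent and 4.57, 4.76 and 4.89 in BL at 0 mM, and 4.57 and 4.95 at 1 mM. It then read 4.35 and 4.21 at 5 mM, 3.48 and 3.21 at 25 mM, 3.21 and 2.91 at 50 mM, and 2.86 and 2.12 at 100 mM. The last value is the lowest in the table, so the size of this fall (1.98 log2 units) is limited by the bottom of the scale. Solvent replicate 3 at 0 mM, at 3.76, overlapped none of the 5 mM arrays and lay below them.

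COR27, a cold- and light-regulated gene whose product represses parts of the circadian clock, was much brighter. It read 9.97, 10.35 and 10.11 in solvent and 9.95, 10.02 and 10.41 in BL at 0 mM, and 10.62 and 10.39 at 1 mM. It dropped to 9.45 and 9.31 at 5 mM and then stayed between 8.85 and 9.28 on the 6 arrays from 25 to 100 mM. All 6 arrays at 0 mM, solvent replicate 3 included, lay above every array from 5 mM upward. Of the fall of 1.44, 77.6% was present at 5 mM. Only 2 probe sets kept matched the listed clock genes, neither a member. The match used symbols and synonyms alone, and a symbol can be shared by unrelated genes. From 5 to 25 mM the probe set matched by the symbol CCR2 fell by 0.51 (SE 0.10, limma adjusted p = 0.0391). The probe set matched by GI changed by 0.23 (SE 0.22, limma adjusted p = 0.636). Whether the CCR2 probe set reads the clock gene or an unrelated gene of that symbol was not tested. Its fall is therefore not taken as that of a clock gene.

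AT1G56300 encodes a J-domain protein, a class of partners of HSP70 chaperones. Its arrays at 0 mM read 10.55, 10.26 and 10.70 in solvent and 10.72, 10.48 and 10.85 in BL. They were 10.86 and 10.72 at 1 mM, 9.84 and 10.05 at 5 mM, 9.58 and 9.62 at 25 mM, 9.35 and 9.45 at 50 mM, and 9.32 and 9.33 at 100 mM. The signal went down at every step above 1 mM with solvent and with BL alike, and the replicates at 0 mM were close together (reference 10.57, SD 0.23, n = 5). Of the 33 members this probe set correlated best with their mean profile (r = 0.958 over the 16 arrays, to which it contributes).

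Among genes of transport and metabolism, SWEET10 encodes a sugar efflux carrier of the plasma membrane. It read 6.93, 6.61 and 7.05 in solvent and 6.71, 6.46 and 6.75 in BL at 0 mM, and 6.78 and 6.27 at 1 mM. The level held at 5 mM (6.59 and 6.31) and then fell to 5.85 with solvent and 4.03 with BL at 25 mM, 5.68 and 4.86 at 50 mM, and 4.29 and 3.98 at 100 mM. Only 4.1% of its fall of 1.82 was present at 5 mM, and the BL array was the lower at each of the 5 doses.

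AT5G13030 encodes a protein of the selenoprotein O family, whose bacterial members transfer AMP to other proteins. It read 8.31, 8.45 and 7.42 in solvent and 8.12, 8.05 and 7.62 in BL at 0 mM, 8.08 and 8.48 at 1 mM, and 8.07 and 8.08 at 5 mM. From there it went to 7.67 and 6.90 at 25 mM, 7.69 and 7.31 at 50 mM, and 6.57 and 6.22 at 100 mM. Its 100 mM arrays lay below all others, while the 25 and 50 mM solvent arrays overlapped the arrays at 0 mM.

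AT3G48460, the gene of a GDSL-type esterase or lipase, also fell late. Its 6 arrays at 0 mM lay between 6.01 and 6.41, with 6.20 and 6.53 at 1 mM and 6.23 and 5.86 at 5 mM. It then read 5.79 and 5.47 at 25 mM, 5.43 and 4.67 at 50 mM, and 5.26 and 4.34 at 100 mM. At every dose from 5 mM upward the BL array was the lower, and both arrays from 25 mM upward lay below all arrays at 0 and 1 mM.

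AT5G24690 read 9.26, 9.10 and 7.24 in solvent and 9.31, 8.62 and 8.55 in BL at 0 mM, and 9.22 and 9.35 at 1 mM. It read 8.96 and 8.75 at 5 mM, 8.60 and 7.84 at 25 mM, 8.47 and 8.29 at 50 mM, and 7.45 and 7.01 at 100 mM. Of its fall of 1.48, 71.9% was present at 25 mM, and both 50 mM arrays lay below the 5 reference and both 1 mM arrays. The 100 mM arrays were the lowest among treated arrays, and solvent replicate 3 at 0 mM was as low as they were.

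A further set had made most of its fall by 5 mM. AT4G24110, known as a transcript induced by low oxygen, read 11.59, 11.10 and 10.58 in solvent and 10.80, 10.83 and 10.98 in BL at 0 mM, and 11.48 and 11.46 at 1 mM. At 5 mM it read 9.61 and 9.87, and from 25 to 100 mM all 6 arrays lay between 9.41 and 9.97. The drop between 1 and 5 mM made up 97.9% of its fall. AT3G29970, of the B12D family of small membrane proteins, read 11.95, 9.39 and 10.37 in solvent and 9.61, 9.52 and 10.06 in BL at 0 mM, and 9.44 and 9.79 at 1 mM. It read 8.01 and 7.60 at 5 mM and 7.69 to 8.30 on the arrays from 25 to 100 mM, all below every array at 0 and 1 mM. AT1G62840 had 70.6% of its fall at 5 mM, where it read 5.70 and 5.55, against 5.97 to 7.60 at 0 mM and 6.68 and 7.12 at 1 mM. AT1G20310 read 3.41 and 4.12 at 5 mM against 4.86 and 5.47 at 1 mM, with 4.33 to 6.30 at 0 mM. It then read 3.607 and 2.52 at 25 mM, 3.915 and 3.294 at 50 mM, and 3.921 and 4.328 at 100 mM. The 100 mM BL array thus equalled solvent replicate 2 at 0 mM.

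Ordered by the share of the fall already present at 5 mM, 10 of the 33 members had at least 75% of it there and 7 had under 25%. These limits were set after the values were seen and serve as a description. The named genes among the 10 were AT3G29970, AT1G20310, AT1G51850, AT4G24110 and COR27. Among the 7 they were AT2G38300, AT3G48460, AT5G13030 and SWEET10.

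**Figure D2:**
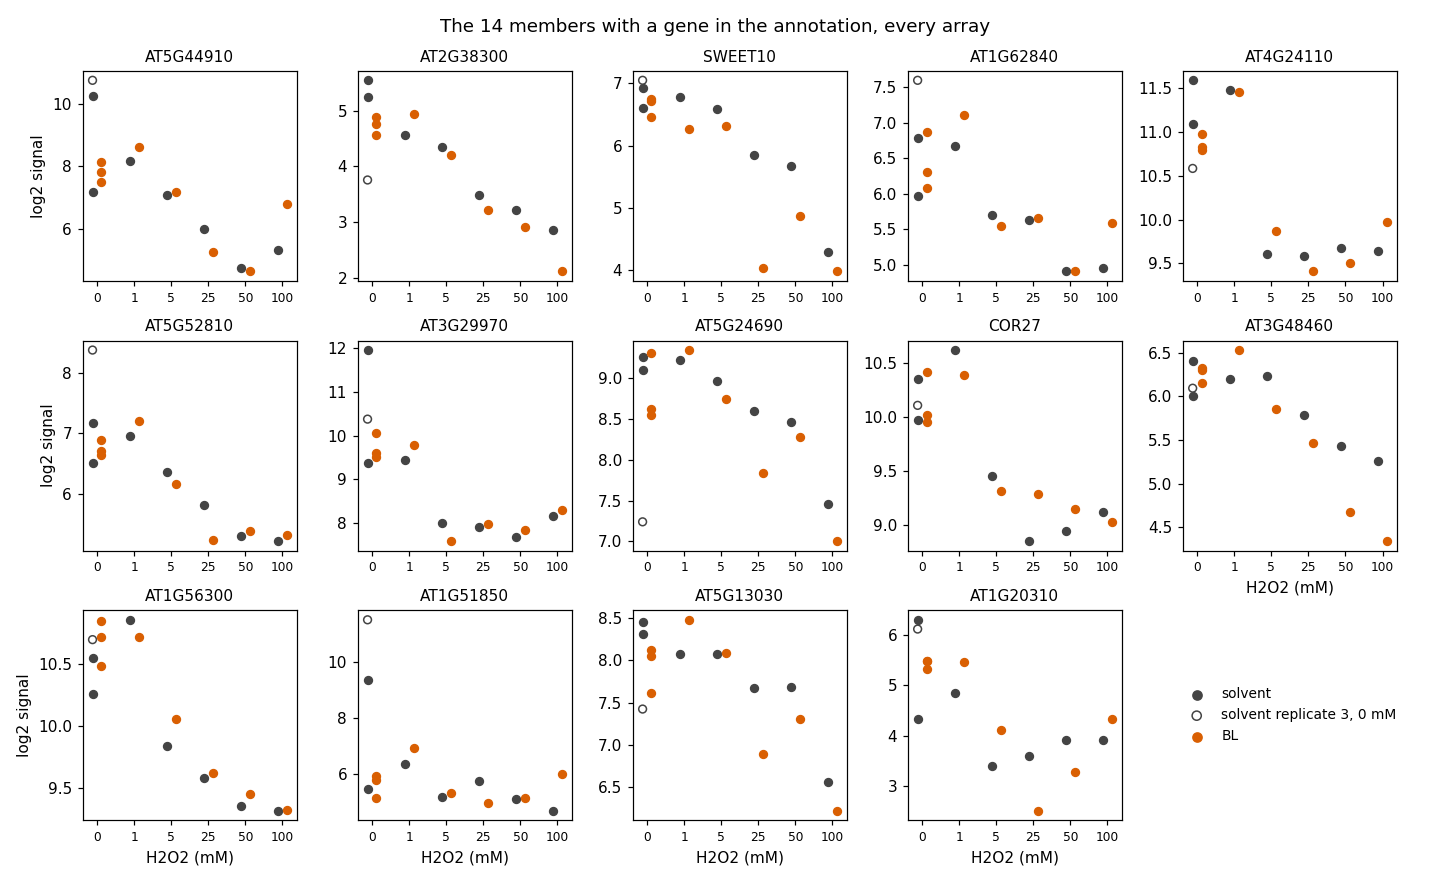
Log2 signal of the 14 members with a gene on each of the 16 arrays, against H2O2 dose (mM, evenly spaced); black points are solvent arrays, orange points BL arrays, and the open circle is solvent replicate 3 at 0 mM. COR27, AT4G24110 and AT3G29970 drop between 1 and 5 mM and then stay level, whereas SWEET10, AT5G13030 and AT3G48460 drop from 25 mM.

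**Figure D3:**
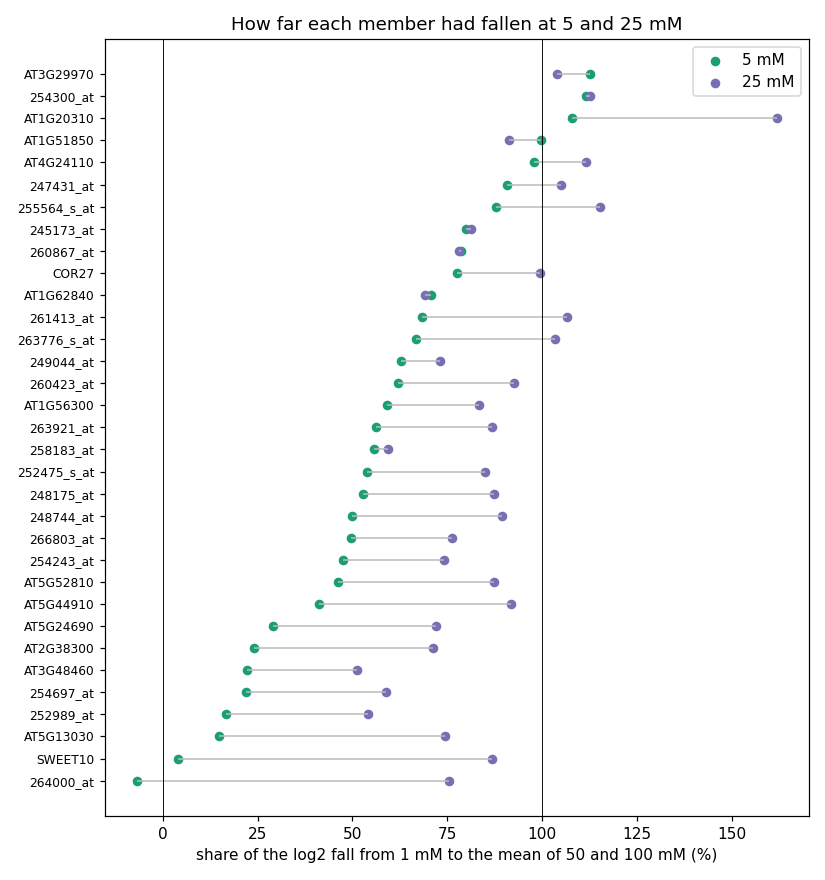
Share (%) of each member's log2 fall from 1 mM to the mean of 50 and 100 mM that was present at 5 mM (green) and at 25 mM (purple); 0 is the 1 mM level and 100 the mean at 50 and 100 mM. The shares at 5 mM run from -6.8% (264000_at) to 112.5% (AT3G29970), and those at 25 mM from 51.1% to 161.7%.

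The arrays at 5 and 25 mM played no part in choosing the members, and the step between these doses was tested. The members had to fall between 1 mM and the 2 highest doses, so a graded fall alone puts part of it in this step. An excess of lower members over all probe sets is therefore a description. The fit also took its residual scatter partly from arrays that the choice used. Of the 33 members, 3 were called lower at 25 mM than at 5 mM and 0 higher (limma on the 10 arrays with H2O2, adjusted over 13140 probe sets, called at an adjusted p under 0.05), against 2.21% of all probe sets called lower. All 3 are unnamed. Probe set 264000_at held 9.35 and 9.27 at 5 mM, next to 9.35 and 9.08 at 1 mM, and read 8.40 and 8.05 at 25 mM, a fall of 1.08 (SE 0.13, limma adjusted p = 0.0094). Probe set 252989_at fell by 0.94 (SE 0.13, limma adjusted p = 0.0138), from 7.56 and 7.28 to 6.61 and 6.35. The third, 248744_at, fell by 0.78 (SE 0.16, limma adjusted p = 0.043), from 6.96 and 7.53 to 6.44 and 6.49.

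These calls are few and depend on the setting. In the other fits the share of all probe sets called was not counted, so their counts describe the members only. In a fit to all 16 arrays 0 members were called, and 0 were called without the 5 mM solvent array, the 5 mM BL array or the 25 mM BL array. Without either 100 mM array 6 were called. At an unadjusted p under 0.05, 16 members were lower at 25 mM, where 8.58% of all probe sets were. Both 25 mM arrays lay below both 5 mM arrays for 22 members (21.1% of all probe sets). The median change of the members was -0.42, and that of all probe sets 0.03. With each array left out the members' median ran from -0.605 to -0.226, the latter without the 25 mM BL array.

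None of the 14 named genes passed the adjusted threshold in this step. SWEET10 came closest, with a change of -1.51 (SE 0.34, limma adjusted p = 0.0523). AT2G38300 changed by -0.94 (SE 0.23, limma adjusted p = 0.0655), AT5G52810 by -0.73 (0.08) and AT5G44910 by -1.51 (0.096). At the other end AT3G29970 changed by 0.14 (SE 0.17, limma adjusted p = 0.725), AT1G51850 by 0.12 and AT1G62840 by 0.03. A p above the threshold does not show that these genes were level.

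**Figure D4:**
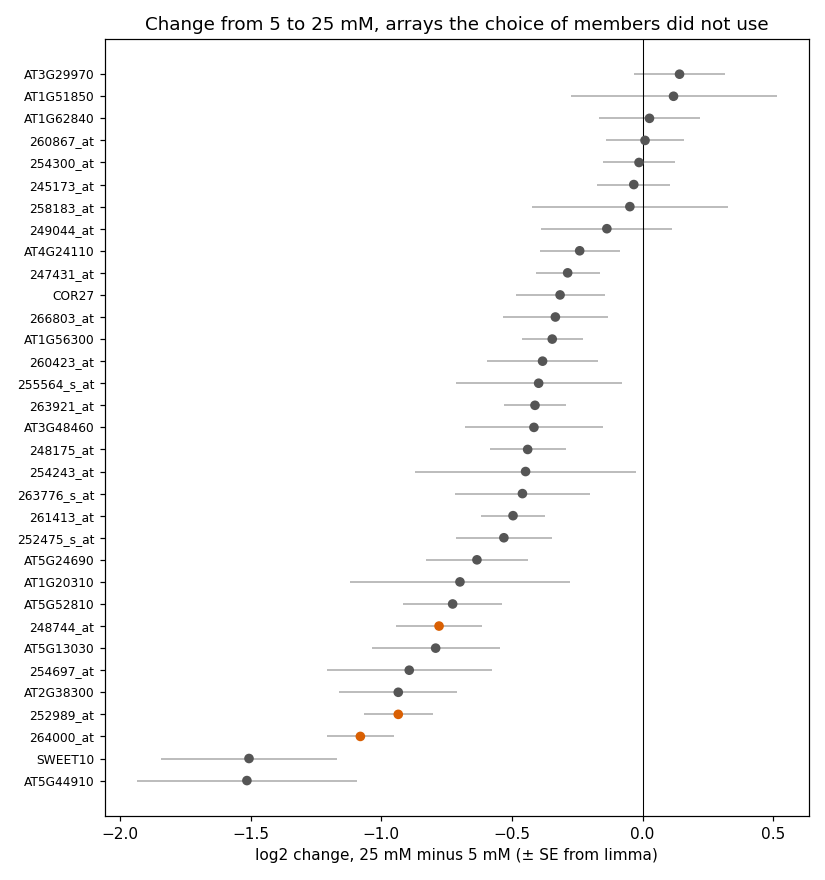
Log2 change from 5 to 25 mM for each member, with the standard error from limma as a bar; orange points passed an adjusted p of 0.05 over all probe sets kept. The estimates run from -1.51 (AT5G44910) to 0.14 (AT3G29970), and 29 of the 33 are below 0.

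The step from 50 to 100 mM gave no call. The choice used only the mean of both doses, which favours neither direction of their difference. A large fall at 1 of the doses could still meet the limit, so the size of the difference is not independent of the choice. No member was called by limma at an adjusted p under 0.05, nor was any of the 13140 probe sets (0%). At an unadjusted p under 0.05 there were 13 members, 8 lower and 5 higher at 100 mM, against 10.2% of all probe sets. The median change was -0.06 in the members and 0.01 in all probe sets. AT5G24690 changed by -1.15 (SE 0.19, limma adjusted p = 0.299), SWEET10 by -1.14 (0.376) and AT5G13030 by -1.10 (0.32), all lower at 100 mM on both arrays. AT5G44910 changed by 1.37 (SE 0.42, limma adjusted p = 0.39) and AT3G29970 by 0.47 (0.448), both higher at 100 mM on both arrays.

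BL did not shift the members in a way that passed a test. With H2O2 present, BL and solvent arrays were compared within each dose, a difference the choice of members did not use, and 0 members were called, as were 0% of all probe sets. At an unadjusted p under 0.05 there were 6 members, 4 lower and 2 higher with BL, against 5.99% of all probe sets. SWEET10 had the largest difference among them, -0.75 with BL (SE 0.21, limma adjusted p = 0.807), being lower at 5 of 5 doses. AT3G48460 differed by -0.41 (SE 0.17, limma adjusted p = 0.821) and AT5G24690 by -0.30 (SE 0.12, limma adjusted p = 0.821). The median difference was 0.05 in the members and -0.002 in all probe sets.

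Without H2O2, 0 members were called between the 3 BL and 3 solvent arrays, against 0.0228% of all probe sets (3 of 13140). At an unadjusted p under 0.05 the numbers were 1 member and 9.23% of all. Leaving out solvent replicate 2 gave 2 calls, with the share of all probe sets called in that fit not counted. In simulated data, this comparison recovered 25 of 100 changes of 1 log2 unit and 56 of 100 changes of 2. The lack of calls therefore does not show that BL left the members level. The largest difference among named members was in AT1G51850, -3.14 with BL (SE 1.45, limma adjusted p = 0.502), where 2 of the 3 solvent arrays were high. The difference between the BL responses with and without H2O2, tested in 1 model on all 16 arrays, was called for 0 members (smallest limma adjusted p = 0.292, with 4 members at an unadjusted p under 0.05) and for 0.0609% of all probe sets. Without solvent replicate 3 it was also called for 0 members, and for 0.837% of all probe sets. The smallest limma adjusted p of a member was then 0.262, with 1 member at an unadjusted p under 0.05. The shares of all probe sets at the unadjusted threshold were not counted in these 2 fits. The 4 members and the 1 member are therefore descriptions only.

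The members differed among themselves in solvent replicates 1 and 3 at 0 mM. Solvent replicate 3 lay at least 1 log2 unit above the reference for 8 members and at least 1 below it for 6, against 12.9% and 16.5% of all probe sets. The share on the low side is near that of all probe sets. Solvent replicate 1 lay at least 1 above the mean of the other 4 reference arrays for 7 members (4.07% of all) and at least 1 below it for 0 (1.53% of all). Of the 8 members high in solvent replicate 3, replicate 1 was above all 4 other reference arrays for 7. The matching share among all probe sets high in replicate 3 was not counted, so this describes these 8 members only. AT1G51850 was 3.77 above these 4 in replicate 1 and 5.91 above in replicate 3, and AT5G44910 2.58 and 3.09. AT3G29970 was 2.30 above in replicate 1 and 0.73 above in replicate 3. AT5G24690 was 1.65 lower in replicate 3, at 7.24, and AT2G38300 was 1.19 lower. COR27, AT1G56300, AT3G48460 and SWEET10 differed from the mean of the 4 arrays by less than 0.5 in both.

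**Figure D5:**
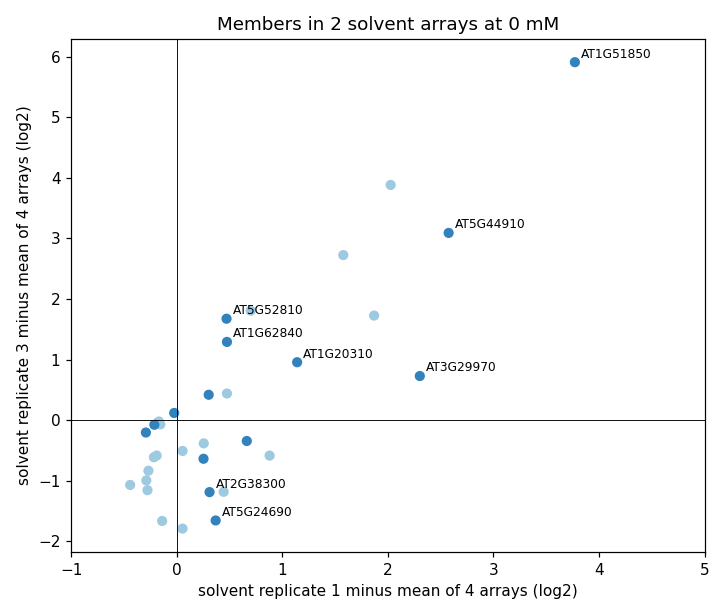
Log2 signal of each member in solvent replicate 1 (horizontal) and solvent replicate 3 (vertical) at 0 mM, each minus the mean of the other 4 arrays at 0 mM; dark points have a gene, light points do not. AT1G51850 and AT5G44910 are high in both, and AT5G24690 and AT2G38300 are low in replicate 3 alone.

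Since solvent replicate 1 is in the reference, it helped to decide which genes were near it at 1 mM. Without this array the rule found 31 members, of which 26 were among the 33. The named genes that no longer met it were AT5G44910, AT2G38300, AT1G62840, AT4G24110 and AT1G51850. For all of these except AT2G38300 the 1 mM mean then lay more than 0.5 above the reference, by 0.54 (AT4G24110) to 1.05 (AT1G51850). AT2G38300 then had a reference below 5.

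None of the 14 named members was on any of the 31 gene family lists, of which 24 had a gene kept, 157 genes in all. The lists were matched by symbol or synonym, and most named members carry only a locus code. Absence from the lists therefore does not show absence from these families. The probe sets outside the group most like its mean profile over the 16 arrays, among those with 1 gene, were the plastid-encoded psbE (r = 0.965) and ndhA (0.954), followed by AT3G52710 (0.944). Both plastid genes met the limits on the values and had been left out as plastid-encoded. psbE, a photosystem II subunit gene, had a mean of 12.62 at 1 mM and 10.99 at 50 and 100 mM, and ndhA, of the NDH complex, 12.53 and 10.84. AT3G52710 went from 6.73 to 5.77. These correlations share the same 16 arrays and their dose pattern and are given as descriptions.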

How the data were processed

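Total RNA of whole seedlings was labelled by the 3' one-cycle protocol and hybridised to Affymetrix arrays, per the labels' protocols. The deposited values are log2 signals per probe set made by the authors with GCRMA, per the submitters' processing notes. Its version, settings and the genome build are not given in the sources used here, and that the scale is log2 was inferred from their range. The lowest value was 2.12. They were used without further scaling, and 64 control probe sets of 22810 were set aside. A probe set entered the tests with a value of 5 or more on 2 or more arrays, which kept 13140 and all 33 members.

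Genes came from the platform annotation, which gave 13513 probe sets 1 gene, 503 several and 8730 none, with symbols from a RefSeq gene table (TAIR10.1). Roles of genes are general background. Tests used limma 3.58.1 in R 4.3.3, with Benjamini-Hochberg adjustment over all probe sets kept. The 10 arrays with H2O2 were fitted with terms for each dose and for BL (4 residual degrees of freedom), and the 6 arrays at 0 mM with BL alone. Each higher dose has 1 array per BL state, so its 2 arrays stand in for replicates. The scripts were tested on simulated data.

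Members, gene lists and tests were chosen with earlier results of these data known. The rule for named genes took members with 1 gene: the 15 largest falls, the 8 largest calls per comparison and direction, members on a list, and the 3 probe sets on each side of the limit. Only 14 members have a gene, and all are described. Unnamed members are given by probe set where a call or limit turned on them. Alternatives were other arrays in the fit, filters, centring, variance moderation, limits of the rule, and each array left out. Arrays have no read depth, and their number limits the precision. No sequences were used here.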

Additional observations from a re-analysis of the deposited data

Results flagged for a closer look

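At 0 mM, 2 of the 14 named members had 1 array far from the other 5. AT5G52810 read 8.37 in solvent replicate 3, with the next highest at 7.16, and AT5G24690 read 7.24 in the same array, with the next lowest at 8.55. Chance sets apart about 1 in 20 such groups. The mean excess of the 3' over the 5' end in the 6 control pairs was not used by any comparison. It was 1.95 at 100 mM (mean of 2 arrays), above the highest of the 6 arrays at 0 mM (1.60).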

How the results depend on the processing

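The 3 calls between 5 and 25 mM became 0 in a fit to all 16 arrays, 1 in a fit without solvent replicate 3 at 0 mM, 0 without the filter, 6 with trend and robust moderation and 1 with a log2 change of at least 1, and ranged from 0 to 6 with each array left out. Calls between 50 and 100 mM and for BL with H2O2 stayed at 0 under each alternative run. The median change from 50 to 100 mM, -0.06, was 0.028 with the stricter filter and ran from -0.115 to 0.021 with each array left out. For BL at 0 mM, leaving out each array gave 0 to 2 calls. The share of all probe sets called was not counted with an array left out, nor in the other fits between 5 and 25 mM. The number of members was 65 with a fall of 1 or more, 15 with 1.5 or more, 14 with 1 mM within 0.25 of the reference, 21 with a reference of 7 or more, and 25 to 39 with each array left out, an alternative chosen after seeing the data. The count of members with both 5 mM arrays below the reference and 1 mM arrays was 14 with solvent replicate 3 added, also chosen after seeing the data. The cause of these changes was not tested. With the replicate number as a block, 0 members and 0 probe sets were called for BL at 0 mM. The same-numbered arrays correlated in their deviations at 0.183, 0.108 and -0.066. Of the 6 arrays, 4 correlated best with their own number in the other group. With 3 arrays per group these values cannot settle whether equal numbers are pairs. The main fit did not pair them.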
